A study of Mus musculus with 8 samples.

Results

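Gene expression was compared between 5 RNA sequencing libraries of sorted mouse cells, 2 from lung and 3 from bladder, out of 8 in the series, over every gene of the deposited table. The libraries were taken by organ, as labelled, and the 3 intestine libraries were left out. Of 21649 genes in the table, 16408 had a normalized read count of at least 10 in at least 2 of the 5 libraries and were tested, and 5241 were not. All the mice carried Cspg4-Dre, Acta2-CreERT and R26-GFP, in lung and bladder groups alike, and both organs came from animals injected intraperitoneally with tamoxifen on 3 days, at a dose of 0.75 mg for each 10 g of mouse, dissolved in corn oil at 20 mg/mL. Both Dre and Cre are enzymes that cut out DNA between their target sites, CreERT is the form of Cre that tamoxifen activates, and R26-GFP is a green fluorescent reporter at the Rosa26 locus. The label of cell identity is non-vascular smooth muscle cell in every library, reached by fluorescence-activated sorting. The promoters behind the recombinases are those of Acta2, active in smooth muscle of every kind and in contractile fibroblasts, and Cspg4, active in pericytes and vascular smooth muscle. How the gate used the reporter, the age, sex and strain of the mice, and whether libraries came from separate or pooled mice are not stated in the sources at hand. The p-values below therefore speak of the spread among these 5 libraries only, and that spread may be technical. Differences are log2 values, lung minus bladder, on the log2(normalized count + 1) scale with their standard error. A gene is called higher or lower in lung where the adjusted p of limma's test over all tested genes was under 0.05.

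Bladder and airway muscle do different work with a shared machine. In both, calcium enters the cell or leaves the sarcoplasmic reticulum, calmodulin switches on myosin light chain kinase, and phosphorylated smooth muscle myosin pulls on actin filaments that are tied to the membrane at dense plaques. The detrusor, the muscle of the bladder wall, stretches for hours and then empties the organ when parasympathetic nerves release acetylcholine and ATP, whereas airway muscle rings the bronchi, is driven by the vagus nerve and is relaxed through cyclic AMP. The organs also arise at different levels of the body axis, which mesenchymal cells record in the HOX genes they keep on, the low-numbered groups in the front of the body and the high-numbered groups in the hind part.

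The libraries held 9.72 to 10.95 M reconstructed reads in bladder and 12.67 and 13.62 M in lung, and 19206 to 19573 genes had a value above 0. Log2 values correlated across genes at 0.972 to 0.974 between bladder libraries, 0.967 between the lung libraries and 0.824 to 0.831 between the organs (genes are not independent replicates). The lung libraries differed from each other more than the bladder libraries did, with a median absolute log2 difference per gene of 0.325 against 0.168 to 0.187. That difference moved with transcript length: the median of lung 1 minus lung 2 was -0.21 in 737 genes of up to 1000 nt of exon and 0.26 in 2550 genes of over 8000 nt, while the lung minus bladder median went from 0.14 to -0.10. Among 357 genes whose exons were read 1 time per nt or more on average, the differences were small and shared, with a median of -0.42 (SD 0.485) against 0.018 (SD 1.85) in 8935 genes under 0.1 read per nt. The read value set by the authors' scaling was itself lower in lung by 0.51 on the log2 scale. Small differences of such densely read genes are therefore given mostly in counts.

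Lung and bladder cells differed in 39.2% of tested genes, 6438 of 16408. Higher in lung were 2861 genes (17.4%) and lower were 3577 (21.8%), and the median difference of all tested genes was -0.01. With an absolute log2 difference of at least 1, 1802 genes (11.0%) were higher and 1962 (12.0%) lower, and the lung and bladder values did not overlap in 10139 genes (61.8%). The balance of the calls depended on scaling: 44.4% of the calls were higher in lung as deposited, 56.8% (3835 up and 2919 down) with equal totals per library, which moved the median of all genes to 0.13, and 80.0% (7103 up and 1771 down) with the deposited scaling undone, which moved it to 0.49. Undoing the scaling removes the correction for depth and is no estimate at equal depth. Where the balance of a gene list turns under another scaling, or a count of 3 or more moves by over 1.5 times, its counts are given with the list.

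**Figure D1:**
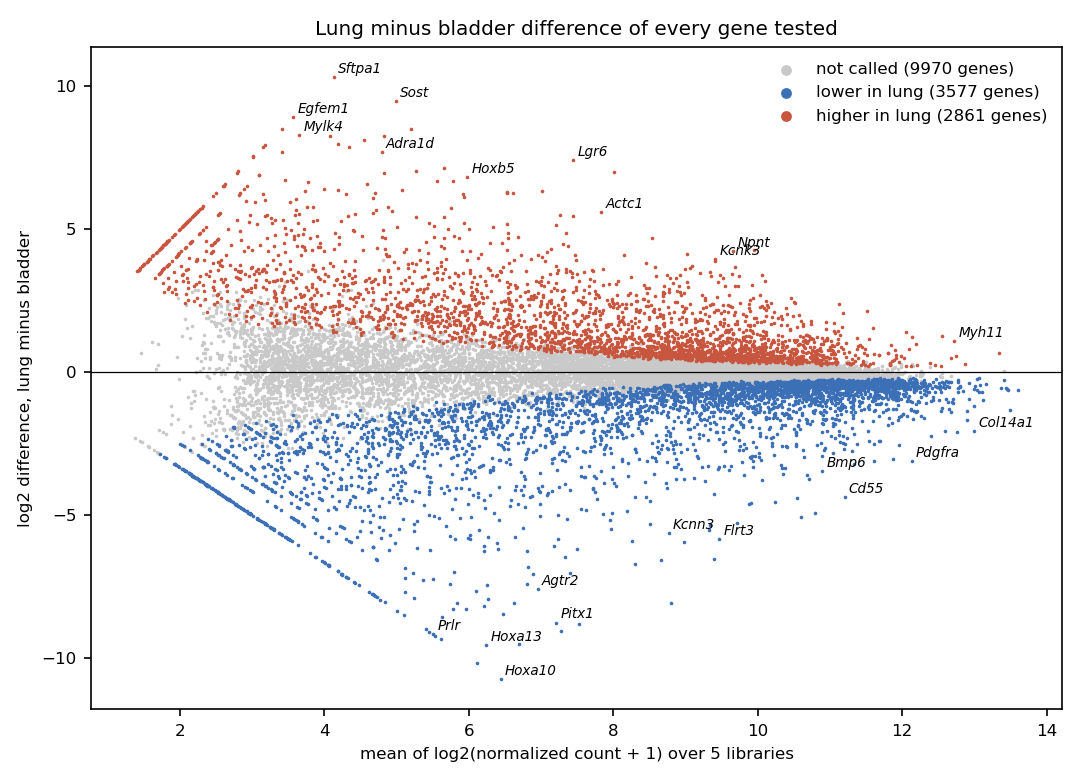
Lung minus bladder log2 difference of each tested gene (vertical axis) against the mean of log2(normalized count + 1) over the 5 libraries (horizontal axis), with 2861 genes called higher in lung in red, 3577 called lower in blue and the rest in grey. The named genes lie far from the line at 0, and the spread narrows toward the right, where the most abundant genes lie.

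The genes of largest difference came from a few sources. Among the 15 that were furthest below bladder in lung were the HOX genes Hoxa10, Hoxa11 and Hoxa13, the uroplakin genes Upk3a, Upk2 and Upk1a of the bladder lining, and receptors, a transporter and an enzyme. Prlr encodes the prolactin receptor (chromosome 15, 10177324 to 10349266, build mm39) and read 577, 638 and 532 in bladder and 0 and 0 in lung. It was at least 230.1-fold lower in lung, against a floor of 3 reads per library (-9.18 ± 0.34, adjusted p = 2.34e-06). Gpr1, a chemerin receptor, read 553, 537 and 509 in bladder and 0 and 1 in lung. Slc14a1, a urea transporter that urothelium also makes, read 1956, 1652 and 2132 in bladder and 12 and 0 in lung. In each of these 3 genes the 2 lung libraries were near or at 0 and the 3 bladder libraries were far above them. Sult1e1, which sulfates and so inactivates oestrogens, was at least 149-fold lower, and Sbp, a spermine-binding protein gene known from prostate, was at least 265-fold lower. The prostate and reproductive tract list had 1 of 5 tested genes higher in lung and 3 lower, with 58 to 92.2 ppm of all values in bladder and 12.9 and 3.83 ppm in lung.

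Sost led the genes higher in lung that are not markers of epithelium. It encodes sclerostin, a secreted inhibitor of WNT signalling known from bone (chromosome 11, 101853284 to 101857841, build mm39), and read 5, 0 and 1 in bladder and 1938 and 1374 in lung (9.48 ± 0.72, adjusted p = 4.8e-05). Egfem1, an EGF-like domain gene, was at least 135-fold higher. Mylk4, of the myosin light chain kinase family, read 0, 0 and 1 in bladder and 494 and 320 in lung. Tmem215, a transmembrane protein gene, read 4, 0 and 2 in bladder and 764 and 613 in lung. All bladder values of these genes were at or near 0, and all lung values were far above. Pnmt, which makes adrenaline from noradrenaline, was at least 70.6-fold higher, and the alpha-1 adrenergic receptor gene Adra1d read 5, 0 and 5 in bladder and 676 and 681 in lung.

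RNA of other cell types was present in both groups and differed between them. Urothelium, the lining of the bladder, showed the largest such difference: the list had 0 of 24 tested genes higher in lung and 22 lower (median -4.20), and its summed level was 1467 to 2077 ppm of all values in bladder and 138 and 197 ppm in lung. Upk3a read 1285, 1360 and 1735 in bladder and 3 and 0 in lung, and Upk1a read 2023, 1995 and 2371 in bladder and 10 and 1 in lung. Ivl, a gene of stratified epithelium, was at least 247-fold lower, and the basal keratin gene Krt5 was at least 130.1-fold lower. Upk2 and Krt5 were at 0 in both lung libraries. The general epithelium list moved the same way, with 3 of 22 tested genes higher in lung and 17 lower. Its adhesion gene Epcam read 109, 126 and 183 in bladder and 32 and 56 in lung (without lung library 1 its call was lost, adjusted p = 0.0638), low but above 0 in both lung libraries.

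Lung epithelium moved in the opposite direction. The list had 15 of 22 tested genes higher in lung and 4 lower (as against 15 and 1 once the scaling is undone, 2 lower without bladder library 1 or bladder library 3) (median 3.40), with 478 to 494 ppm of all values in bladder and 712 and 694 ppm in lung. Sftpc, the surfactant protein of alveolar type 2 cells, read 6, 1 and 2 in bladder and 1234 and 1272 in lung, and Sftpa1 was at least 355-fold higher. Scgb1a1, the secretory protein of airway club cells, read 4, 1 and 5 in bladder and 470 and 291 in lung. Of the list, 4 genes were at 0 in every bladder library, Sftpa1 and Sftpd among them, and 0 were at 0 in both lung libraries. Pdpn, which marks type 1 cells but also mesothelium and lymphatic vessels, was 3.41-fold lower in lung.

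Immune RNA split by lineage. The macrophage, monocyte and dendritic cell list had 3 of 25 tested genes higher in lung and 18 lower (median -2.08), with 1139 to 1901 ppm of all values in bladder and 453 and 513 ppm in lung. C1qa, a complement chain of resident macrophages, read 1213, 716 and 665 in bladder and 91 and 101 in lung, and the scavenger receptor gene Cd163 was 19-fold lower. The pan-leukocyte gene Ptprc did not pass the test, at 278, 68 and 56 in bladder and 80 and 52 in lung, and bladder library 1 was the highest of the 5 in all 3 of these genes. Chil3, a chitinase-like protein of alveolar macrophages, read 0, 0 and 0 in bladder and 187 and 299 in lung. Antibody genes of plasma cells were higher in lung, Igkc at 3, 0 and 2 in bladder and 404 and 706 in lung and Igha at 0, 3 and 5 in bladder and 667 and 1149 in lung, and lung library 2 was the higher in both. Antibody constant genes belong to a family of similar sequences, so the split of their reads is uncertain. The lymphocyte, granulocyte and mast cell list had 7 of 12 tested genes higher in lung and 1 lower, and the erythroid list had 5 of 5 tested genes higher in lung and 0 lower (1 higher without bladder library 1, 2 higher without bladder library 2 or lung library 1 or lung library 2, 3 higher without bladder library 3).

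Vessel lining genes also moved. The blood endothelium list had 18 of 26 tested genes higher in lung and 3 lower (8 higher without lung library 2) (median 0.99), with 1068 to 1347 ppm of all values in bladder and 2185 and 2301 ppm in lung. Vwf, the von Willebrand factor, read 308, 262 and 265 in bladder and 2739 and 3112 in lung (3.39 ± 0.14), and the pan-endothelial adhesion gene Pecam1 read 954, 599 and 773 in bladder and 1417 and 1465 in lung (0.92 ± 0.19). The call of Pecam1 was lost without either lung library (adjusted p = 0.0576 and 0.0767). Kdr, the VEGF receptor of capillaries, was 3.93-fold lower. The lymphatic list had 2 of 9 tested genes higher in lung and 6 lower: Mmrn1 read 2936, 1756 and 1593 in bladder and 16 and 21 in lung, Prox1, the factor that sets lymphatic identity, was 17.5-fold lower, and Flt4, the receptor for VEGF-C, was 11.6-fold lower. Summed over the list, the level was 546 to 782 ppm of all values in bladder and 329 and 414 ppm in lung. Mesothelium, the outer covering of both organs, had 0 of 17 tested genes higher in lung and 14 lower (9 lower without bladder library 1 or lung library 1), with 1018 to 1316 ppm of all values in bladder and 311 and 479 ppm in lung.

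Fibroblast genes were read strongly in both organs. The general fibroblast list had 1 of 26 tested genes higher in lung and 24 lower (median -0.89), with 9587 to 10490 ppm of all values in bladder and 5562 and 6502 ppm in lung, and 11 of its members were read at 1 read per nt or more. Pdgfra, the PDGF receptor of fibroblasts (chromosome 5, 75312953 to 75358876, build mm39), read 11039, 11091 and 9933 in bladder and 1203 and 1244 in lung, which was 8.74-fold lower in lung (-3.12 ± 0.08, adjusted p = 1.03e-06). That difference was larger than the shared shift of densely read genes. Dpp4, a peptidase of adventitial fibroblasts, was 24.3-fold lower. Lung alveolar and adventitial fibroblast genes divided, with 8 of 21 tested genes higher in lung and 13 lower: Npnt and Itga8 were among the higher, and Col14a1 was 4.22-fold lower and Wnt2 12.6-fold lower. In bulk RNA of this kind fewer cells of a type and less RNA per cell cannot be told apart.

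Smooth muscle genes were read in all 5 libraries, beside fibroblast genes of similar value per kb of exon. Values of the most densely read genes would be capped if duplicate reads were removed, which was not tested. Similar values among such genes are therefore not shown to be similar abundances. Acta2, whose promoter drives CreERT, did not pass the test, at 2933, 2549 and 2323 in bladder and 2719 and 2630 in lung. Per kb of exon, the mean value of Acta2 was 1185 in bladder and 1218 in lung, that of Myh11 663 and 1393 and that of Cnn1 1050 and 940.2. On the same length-corrected scale the fibroblast genes Pdgfra, at 1066 and 122, and Lum, at 1815 and 1102, lay in the range of the muscle genes in bladder, and in lung Pdgfra lay well below them. Tagln, a defining smooth muscle gene, was low by its counts and higher in lung, at 188, 155 and 160 in bladder and 475 and 485 in lung (1.52 ± 0.19). Its 3′ end overlaps Pcsk7 on the opposite strand in these coordinates, and without strand such reads cannot be told apart.

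The labelled identity leaves out vascular muscle, yet genes of vascular smooth muscle and pericytes were read in all 5 libraries and were more often higher in lung. That list had 16 of 24 tested genes higher in lung and 1 lower (median 1.27), with 2179 to 2266 ppm of all values in bladder and 4470 and 3846 ppm in lung. Mcam, an adhesion molecule of mural cells, read 542, 385 and 453 in bladder and 4178 and 4060 in lung, and Cox4i2, a cytochrome c oxidase isoform of pericytes, was 14.5-fold higher. Higd1b, a pericyte marker, was 18.5-fold higher. The general mural gene Pdgfrb did not pass the test, at 6692, 6985 and 6725 in bladder and 6911 and 5414 in lung. Cspg4, whose promoter drives Dre, was 10.7-fold higher. Airway smooth muscle and lung myofibroblast genes moved the same way, with 16 of 21 tested genes higher in lung and 1 lower (median 2.15). Lgr6, a receptor for R-spondins that marks airway smooth muscle, read 27, 8 and 43 in bladder and 4606 and 3124 in lung, 149-fold higher in lung. The part that vascular, airway, fibroblast and lining cells had in the results below was not tested.

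Smaller lists had few tested genes, and over all tested genes 17.4% were higher in lung and 21.8% lower. Neurons had 3 of 9 tested genes higher in lung and 2 lower, and glia 3 of 13 higher and 6 lower. Adipocytes had 1 of 4 higher and 2 lower. Skeletal muscle had 5 of 12 higher and 3 lower (2 higher without lung library 2, 1 lower without lung library 1). Cartilage had 1 of 8 higher and 5 lower (3 lower without lung library 1). Interstitial cells of Cajal had 4 of 11 higher and 2 lower.

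**Figure D2:**
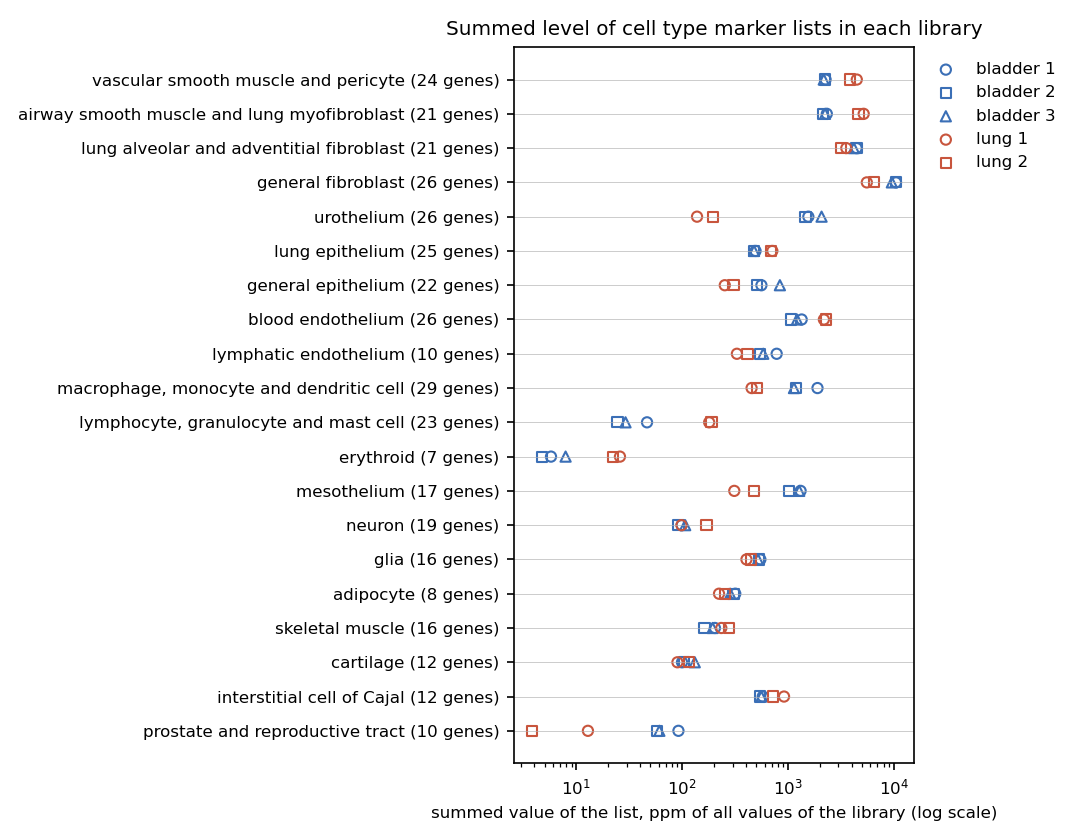
Summed normalized counts of each cell type marker list as ppm of all values in the library (horizontal axis, log scale), with bladder libraries in blue and lung libraries in red. Urothelium, macrophage and mesothelium lists lie further right in all 3 bladder libraries, and the vascular, airway muscle and blood endothelium lists lie further right in both lung libraries.

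Position genes separated the organs. HOX groups 1 to 5 had 9 of 10 tested genes higher in lung and 0 lower (median 5.13), groups 6 to 8 had 3 of 6 tested genes higher in lung and 2 lower, and groups 9 to 13 had 0 of 12 tested genes higher in lung and 12 lower (median -6.69). Of the 15 genes of groups 9 to 13 in the table, 10 were at 0 in both lung libraries. Hoxa4 read 3, 5 and 10 in bladder and 265 and 375 in lung, and Hoxb2 read 6, 13 and 18 in bladder and 292 and 368 in lung. At the other end, Hoxa13, which patterns the hindmost body, read 1098, 1025 and 1091 in bladder and 0 and 1 in lung, and Hoxd9 read 218, 259 and 271 in bladder and 0 and 0 in lung. Hoxd10 was at least 31.6-fold lower. Hoxa7, in the middle of the cluster, did not pass the test, at 320, 268 and 328 in bladder and 329 and 355 in lung. Lung library 2 was above lung library 1 in 7 of the 9 genes of groups 1 to 5 that were higher in lung. The antisense gene Hoxa11os overlaps Hoxa11, and without strand their reads cannot be told apart.

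**Figure D3:**
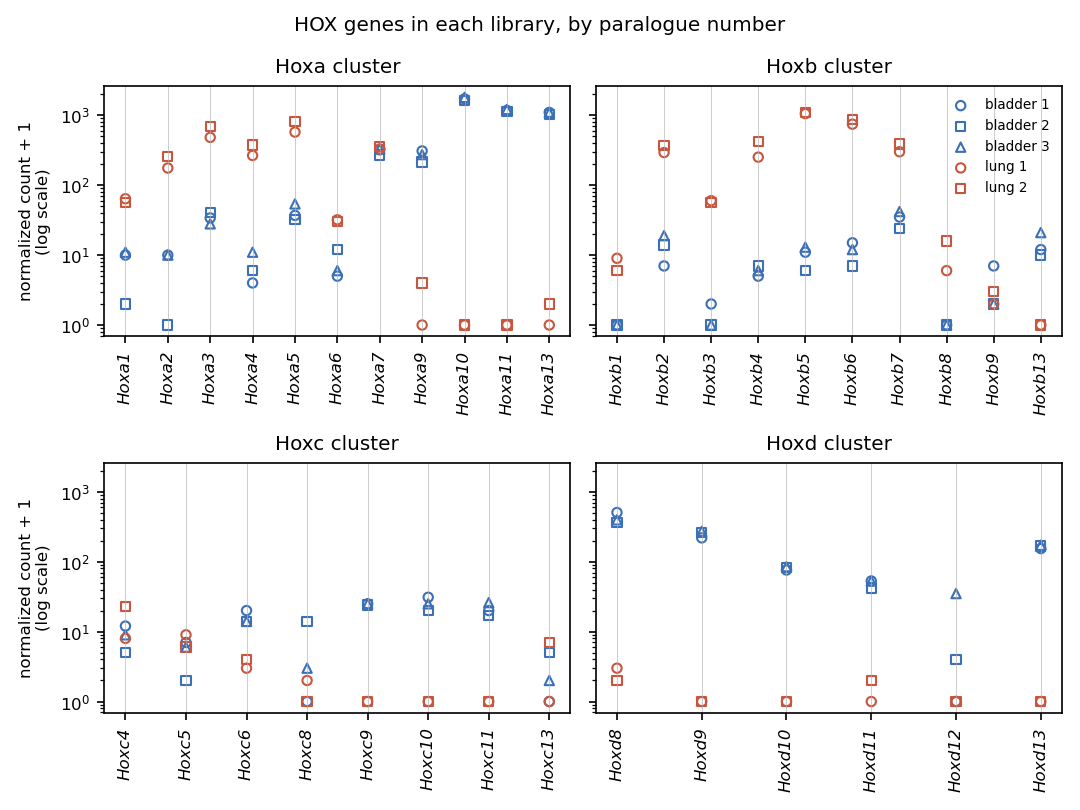
Normalized count + 1 (vertical axis, log scale) of each HOX gene in the table in the 3 bladder (blue) and 2 lung (red) libraries, in 4 panels by cluster and ordered by paralogue number. Lung points lie above bladder points for the low-numbered HoxA and HoxB genes and at the bottom of the panel for HoxA genes from number 10 on and for HoxD genes.

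Transcription factors of organ mesenchyme differed too. The urogenital list had 3 of 25 tested genes higher in lung and 16 lower (as against 6 and 14 once the scaling is undone) (median -1.35). Isl1, a LIM homeobox factor of caudal mesenchyme, read 370, 298 and 314 in bladder and 2 and 10 in lung. Tshz2, a teashirt zinc finger factor, read 2155, 2296 and 2294 in bladder and 282 and 304 in lung, and its relative Tshz3 was 2.59-fold lower. Twist1 and Twist2, basic helix-loop-helix factors of mesenchyme, were 6.42-fold lower and 7.18-fold lower. Esr1, the oestrogen receptor, lay on the opposite side from these factors and read 401, 263 and 299 in bladder and 882 and 668 in lung, 2.41-fold higher in lung.

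Factors of lung mesenchyme went in both directions, with 9 of 22 tested genes higher in lung and 10 lower (as against 10 and 9 with equal totals and 11 and 5 once the scaling is undone). Tbx5 and Tbx4 are T-box factors that start the lung bud. Tbx5 read 358, 364 and 333 in bladder and 1309 and 1209 in lung, and Tbx4 read 1299, 1325 and 1292 in bladder and 3728 and 3664 in lung, so Tbx4 was also well above 0 in bladder. Meox2, a homeobox factor of mesoderm, was 13.3-fold higher, and Hlx, a homeobox factor of visceral mesenchyme, 4.83-fold higher. Hand2, a basic helix-loop-helix factor, was 23.4-fold lower. Tcf21, a factor of lung and kidney mesenchyme, was 2.36-fold lower.

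The contractile machine was not uniformly higher in lung, and 52.4% of tested thin filament genes were called against 39.2% of all genes. Thin filament genes had 5 of 21 tested genes higher in lung and 6 lower (as against 5 and 2 with equal totals, 8 and 2 with quantile normalization and 15 and 1 once the scaling is undone, 3 higher without bladder library 2 or lung library 2, 2 lower without bladder library 1 or bladder library 2, 3 lower without lung library 1), and 8 members were read at 1 read per nt or more, where differences were small. Actg2, the enteric actin, did not pass the test, at 2875, 2519 and 2412 in bladder and 2160 and 2266 in lung, nor did Cnn1, calponin, at 3156, 2777 and 2689 in bladder and 2520 and 2625 in lung. Tmod1, which caps the slow-growing end of actin filaments, read 61, 29 and 19 in bladder and 627 and 405 in lung, while its broadly expressed relative Tmod3 was 2.22-fold lower. Lmod1, which starts actin filaments in smooth muscle, was 10.6-fold higher. Per kb of exon Lmod1 was at 79.3 in bladder and 842 in lung, below Cnn1 in both organs. The actin genes are near-identical in sequence, so the split of reads between them is uncertain.

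Myosin and the enzymes that switch it were more often higher in lung, with 13 of 23 tested genes higher in lung and 2 lower (median 0.46). Mylk, the myosin light chain kinase, read 2174, 1802 and 2107 in bladder and 5833 and 5848 in lung (1.53 ± 0.10, adjusted p = 2.19e-05). Myh11, the smooth muscle heavy chain (chromosome 16, 14012399 to 14109236, build mm39), was 2.1-fold higher (1.09 ± 0.13), and the non-muscle heavy chain Myh9 was 1.92-fold higher. Ppp1r12b, a targeting subunit of myosin phosphatase, read 1138, 929 and 931 in bladder and 4948 and 2037 in lung, and its relative Ppp1r12a was 2.74-fold higher. The lung libraries differed from each other by more in Ppp1r12b than the whole bladder level. Rock1, a kinase that restrains the phosphatase, was 1.64-fold higher, and Rock2 did not pass the test, at 2589, 2494 and 1991 in bladder and 2905 and 2434 in lung.

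Dense plaque and linker genes had 21 of 32 tested genes higher in lung and 3 lower (as against 23 and 1 with quantile normalization and 27 and 0 once the scaling is undone) (median 0.63). The integrin alpha chains were among the largest differences: Itga8 read 344, 289 and 281 in bladder and 8088 and 4230 in lung, Itga7, a laminin-binding chain of muscle, read 393, 403 and 460 in bladder and 4003 and 2928 in lung, and Itga9 was 3.01-fold higher. All lung values of these chains were above all bladder values (over all tested genes, values did not overlap in 61.8%). Ldb3, a PDZ and LIM protein of the Z-disc, was 14.2-fold higher, and Nexn, an actin-binding protein of the same structure, 6.38-fold higher. Actn1, alpha-actinin, was 5.36-fold higher. Lpp, a LIM protein of smooth muscle dense bodies, read 4503, 4122 and 4095 in bladder and 10870 and 9401 in lung. Des, the intermediate filament desmin, did not pass the test, at 4007, 3152 and 3219 in bladder and 3606 and 3775 in lung. In 15 of the 21 higher members lung library 1 was above lung library 2.

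The dystrophin complex ties the cell cortex to the matrix, and its list, with caveola genes, had 8 of 21 tested genes higher in lung and 6 lower (as against 11 and 3 with equal totals, 11 and 2 with quantile normalization and 14 and 0 once the scaling is undone, 3 lower without bladder library 1 or bladder library 2). Sgca, the alpha-sarcoglycan of striated muscle, was 8.91-fold higher. Dmd, dystrophin itself, did not pass the test, at 1199, 1081 and 893 in bladder and 2637 and 1259 in lung, with its lung libraries far apart. Cav3, the muscle caveolin, read 16, 18 and 34 in bladder and 501 and 518 in lung. Its relative Cav2 was 2.18-fold higher.

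Regulators of the muscle programme had 9 of 23 tested genes higher in lung and 3 lower (as against 15 and 2 once the scaling is undone). That was 52.2% called, against 39.2% of all genes. Myocd, myocardin, the cofactor that drives smooth muscle genes through SRF, read 77, 33 and 47 in bladder and 690 and 302 in lung (3.19 ± 0.46, adjusted p = 0.0011). Srf itself read 594, 657 and 868 in bladder and 1205 and 1501 in lung. Without lung library 2 its call was lost (adjusted p = 0.0718). The related cofactor Mrtfa was 1.81-fold higher, and Mef2c, another muscle factor, was 3.47-fold higher. Klf4, which opposes the contractile programme and is also an immediate early gene, read 4409, 4951 and 4544 in bladder and 616 and 1096 in lung, 5.41-fold lower in lung. Lung and bladder values of these 5 genes did not overlap, as in 61.8% of all tested genes.

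Genes of heart muscle differed more than any other muscle list examined. Of 45 tested, 35 were higher in lung, all by a log2 difference of at least 1, and 2 were lower (median 3.40, against -0.01 over all genes), and the summed level was 419.6 to 444 ppm of all values in bladder and 1886 and 1458 ppm in lung. Actc1, cardiac actin, read 55, 46 and 42 in bladder and 2317 and 2342 in lung, and Tcap, which binds titin at the Z-disc, read 18, 9 and 26 in bladder and 1332 and 1295 in lung. The lung libraries were close to each other in these genes. Myh6, the atrial myosin heavy chain, read 0, 3 and 1 in bladder and 897 and 279 in lung, and Corin, the protease that activates atrial natriuretic peptide, read 0, 0 and 4 in bladder and 880 and 315 in lung. In Myh6 and Corin lung library 1 was well above lung library 2, as it was in 28 of the 35 higher members. Actin and myosin heavy chain genes have close relatives, and the split of reads between them is uncertain. Actc1 is counted in the airway smooth muscle and lung myofibroblast list too.

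The other heart genes belong to several compartments of the muscle cell. Which cells held the RNA of the heart genes was not tested. In the sarcomere, Myom1, which links myosin filaments at the M-band, was 11.4-fold higher, Tnni3, cardiac troponin I, 20.1-fold higher, and Tnnt2, cardiac troponin T, 2.81-fold higher, and Ttn, titin, read 1, 8 and 4 in bladder and 164 and 51 in lung. In the sarcoplasmic reticulum, Ryr2, the calcium release channel, was 15.9-fold higher (its call was lost without either lung library, with adjusted p = 0.054 and 0.0537), and Sln, sarcolipin, which slows the calcium pump, read 5, 0 and 2 in bladder and 156 and 89 in lung. Ckmt2, a mitochondrial creatine kinase, was at least 19.8-fold higher, with its lung libraries far apart at 118 and 25. Pln, phospholamban, did not pass the test, at 34, 43 and 30 in bladder and 76 and 29 in lung, nor did Casq2, the cardiac calsequestrin, at 81, 56 and 76 in bladder and 175 and 70 in lung. Tbx20, a T-box factor of the heart, was 11-fold lower.

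A CArG box, the sequence that SRF binds, was looked for in the 250 bases before each transcription start in the RefSeq promoter table (build GRCm38.p6), which holds 36 of the 47 heart genes of the deposited table. Of these, 5 had at least 1, in 5 of 44 windows (11.4%), against 482 of 32851 windows of the whole promoter table (1.47%) and 184 of 15176 windows of tested genes (1.21%). The dense plaque list had it in 4 of 30 windows (13.3%), from 3 of 23 genes, since overlapping windows of Ldb3 hold the same box. The thin filament list had it in 3 of 20 windows (15%), the myosin list in 2 of 27 (7.41%) and the dystrophin list in 1 of 19 (5.26%). The pattern searched for is the same on both strands, although a single box need not read the same on both. A match describes letters and not a bound site, and most of the heart genes had none in this window. The windows of the 5 heart genes, and of Ldb3 and Vcl from the dense plaque list, are printed 5′ to 3′ on the strand of the gene with the CArG box in capitals, because the box is the binding element of SRF, whose gene is described above.
Actc1 (chr2:114052876-114053125, reverse strand): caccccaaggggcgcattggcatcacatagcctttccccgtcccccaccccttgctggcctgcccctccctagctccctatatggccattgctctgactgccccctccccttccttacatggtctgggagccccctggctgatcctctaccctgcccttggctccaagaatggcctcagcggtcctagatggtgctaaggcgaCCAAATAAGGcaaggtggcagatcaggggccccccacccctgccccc
Myl3 (chr9:110763428-110763677, forward strand): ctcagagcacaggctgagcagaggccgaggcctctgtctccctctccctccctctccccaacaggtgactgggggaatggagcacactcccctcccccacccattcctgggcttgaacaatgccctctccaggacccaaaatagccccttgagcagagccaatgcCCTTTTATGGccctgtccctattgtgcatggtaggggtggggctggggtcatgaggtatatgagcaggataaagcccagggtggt
Myl7 (chr11:5898783-5899032, reverse strand): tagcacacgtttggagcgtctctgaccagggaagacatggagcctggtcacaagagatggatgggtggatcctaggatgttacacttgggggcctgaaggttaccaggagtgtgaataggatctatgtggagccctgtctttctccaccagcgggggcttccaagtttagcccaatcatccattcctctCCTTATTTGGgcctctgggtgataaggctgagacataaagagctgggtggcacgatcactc
Myom1 (chr17:71019307-71019556, forward strand): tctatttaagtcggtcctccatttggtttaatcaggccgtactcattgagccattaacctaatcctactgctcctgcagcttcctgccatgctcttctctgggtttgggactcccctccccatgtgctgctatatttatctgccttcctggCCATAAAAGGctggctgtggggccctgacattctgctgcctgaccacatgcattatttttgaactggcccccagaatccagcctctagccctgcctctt
Nebl (chr2:17462857-17463106, reverse strand): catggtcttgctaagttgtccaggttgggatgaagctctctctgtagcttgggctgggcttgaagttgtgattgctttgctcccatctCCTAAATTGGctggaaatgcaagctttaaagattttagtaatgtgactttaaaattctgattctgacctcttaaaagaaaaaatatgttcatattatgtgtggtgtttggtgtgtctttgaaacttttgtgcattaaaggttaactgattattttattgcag
Ldb3 (chr14:34588682-34588931, reverse strand): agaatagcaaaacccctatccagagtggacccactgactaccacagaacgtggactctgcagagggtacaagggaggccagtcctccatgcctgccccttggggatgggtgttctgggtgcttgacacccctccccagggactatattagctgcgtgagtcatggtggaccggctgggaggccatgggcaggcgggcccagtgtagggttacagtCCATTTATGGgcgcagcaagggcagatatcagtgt
Vcl (chr14:20929148-20929397, forward strand): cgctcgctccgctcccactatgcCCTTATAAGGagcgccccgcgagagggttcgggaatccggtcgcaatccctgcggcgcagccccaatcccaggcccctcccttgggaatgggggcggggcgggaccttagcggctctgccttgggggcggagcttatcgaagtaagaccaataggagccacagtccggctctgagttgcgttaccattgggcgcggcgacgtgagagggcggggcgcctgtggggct
The first base of the box lay 47 bases before the start in Actc1, 61 in Myl7, 85 in Myl3, 99 in Myom1, 162 in Nebl, 35 in Ldb3 and 227 in Vcl. Another start of Ldb3 puts the same box 109 bases before it. Myl7, the atrial light chain, read 19, 14 and 9 in bladder and 569 and 505 in lung, and Nebl, nebulette of the Z-disc, read 24, 10 and 11 in bladder and 375 and 425 in lung. Myl3, a ventricular light chain, read 3, 1 and 2 in bladder and 66 and 43 in lung, and Vcl, vinculin of the dense plaque, was 2.32-fold higher. Windows were printed only from genes called higher in lung, and not from all of those with a box. That all 7 genes had every lung value above every bladder value is thus no separate result. Over all tested genes, lung and bladder values did not overlap in 61.8%.

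**Figure D4:**
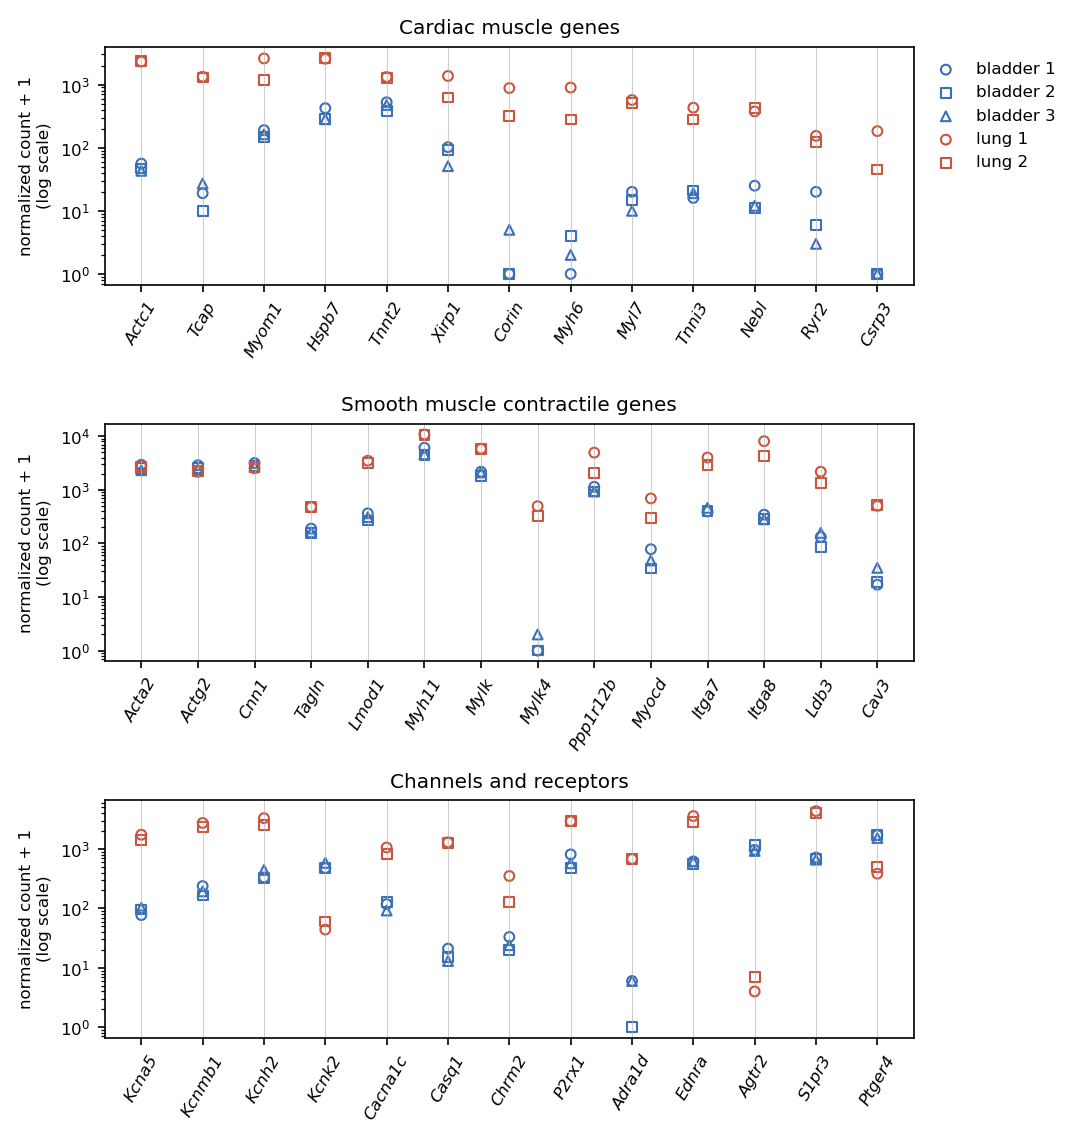
Normalized count + 1 (vertical axis, log scale) of named heart muscle genes, smooth muscle contractile genes, and channels and receptors in the 3 bladder (blue) and 2 lung (red) libraries. Acta2 overlaps between the organs, and Actg2 and Cnn1 lie close together but lower in both lung libraries. The heart genes, Lmod1, Myh11 and Kcna5 lie higher in both lung libraries, and Kcnk2, Agtr2 and Ptger4 lie lower.

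Potassium channels set the membrane potential, and with it the calcium that enters. The list had 15 of 42 tested genes higher in lung and 9 lower (median 0.49). The voltage-gated channel gene Kcna5 read 76, 95 and 101 in bladder and 1732 and 1390 in lung, and Kcnh2, another voltage-gated channel, read 330, 319 and 441 in bladder and 3289 and 2522 in lung. The BK channel, opened by voltage and calcium, has a smooth muscle subunit, Kcnmb1, that was 12.9-fold higher (3.70 ± 0.18, adjusted p = 7e-06). Kcnj8, the pore of the ATP-sensitive channel, was 10.5-fold higher, while its partner Abcc9 did not pass the test, at 1161, 1517 and 1194 in bladder and 1926 and 771 in lung. The background channels with 2 pore domains lay on both sides, Kcnk3 15.5-fold higher and the stretch-gated Kcnk2 9.98-fold lower, Kcnk5 5.08-fold lower and Kcnk1 12.3-fold lower. Kcnk2 read 474, 472 and 581 in bladder and 43 and 59 in lung.

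Calcium entry and store genes had 15 of 44 tested genes higher in lung and 12 lower. Cacna1c, the pore of the L-type channel, read 117, 128 and 91 in bladder and 1055 and 831 in lung (3.07 ± 0.22, adjusted p = 4.03e-05), and its subunits Cacnb2 and Cacna2d3 were 3.41-fold higher and 34.1-fold higher. Casq1, a calcium store protein best known from skeletal muscle, read 20, 14 and 12 in bladder and 1291 and 1246 in lung. The T-type channel gene Cacna1g was 4.61-fold lower. Trpc6, a channel opened by receptor signals, was 8.6-fold higher and Trpv2 5.58-fold higher, whereas Trpv4, opened by swelling and warmth, was 3.05-fold lower. The mechanosensor genes split, Piezo1 at 1096, 1174 and 1230 in bladder and 528 and 415 in lung and Piezo2 at 148, 130 and 144 in bladder and 261 and 378 in lung. Of the receptors for inositol trisphosphate, Itpr1 was 1.73-fold higher, Itpr3 was 7.01-fold lower and Itpr2 did not pass the test, at 363, 339 and 321 in bladder and 279 and 354 in lung. Lung library 1 was above lung library 2 in 12 of the 15 higher members.

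Connexins, which join cells electrically, had 6 of 11 tested genes higher in lung and 3 lower (5 lower without lung library 2). Gja1, connexin 43, read 1688, 1537 and 1570 in bladder and 3563 and 2465 in lung, and Gjc1, connexin 45, was 1.57-fold higher. Gja4 and Gja5, connexins of arterial endothelium, were 5.65-fold higher and 5.69-fold higher. Both are counted in the blood endothelium list too, so its sums are not separate from them.

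Receptors for nerve transmitters differed by subtype. Acetylcholine and ATP receptors, with the enzymes that clear ATP, had 8 of 18 tested genes higher in lung and 7 lower (as against 9 and 4 once the scaling is undone). Chrm2, the muscarinic receptor that inhibits adenylyl cyclase, read 32, 19 and 23 in bladder and 349 and 127 in lung. Chrm3, the receptor that drives contraction in both organs, was too low to test, at 5, 1 and 16 in bladder and 6 and 9 in lung. P2rx1, the ATP-gated channel of smooth muscle, read 808, 473 and 572 in bladder and 2919 and 2927 in lung (2.28 ± 0.20, adjusted p = 0.000111). P2rx5 was 12.1-fold higher and P2ry14, a receptor for UDP-glucose, 10.2-fold higher, while P2ry1, an ADP receptor, was 33.8-fold lower. The ectoenzymes that break down ATP lay on opposite sides, Entpd1 2.87-fold higher and Entpd2 4.54-fold lower. So did the adenosine receptors, Adora2a 8.5-fold higher and Adora2b 4.01-fold lower.

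Adrenergic receptors had 3 of 8 tested genes higher in lung and 0 lower (as against 6 and 0 once the scaling is undone), or 37.5% called against 39.2% of all genes, with Adra1d, described above, the largest difference. Adrb3, the target of drugs for overactive bladder, did not pass the test, at 65, 33 and 27 in bladder and 54 and 78 in lung. Adrb1 was 4.52-fold higher, and Adra1b did not pass, at 326, 368 and 269 in bladder and 241 and 170 in lung.

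Peptide receptors were more often lower in lung, with 8 of 26 tested genes higher in lung and 14 lower (5 higher without bladder library 1 or bladder library 2 or lung library 1) (median -1.01). Agtr2, the type 2 angiotensin receptor, read 963, 1168 and 923 in bladder and 3 and 6 in lung (-7.58 ± 0.31, adjusted p = 3.45e-06), and the type 1 receptors Agtr1a and Agtr1b were 1.94-fold lower and 6.09-fold lower. The call of Agtr1a was lost without bladder library 2 or 3 or lung library 2 (adjusted p = 0.0637, 0.059 and 0.0684). Endothelin receptors went the other way. Ednra read 615, 554 and 612 in bladder and 3571 and 2802 in lung, and Ednrb, which endothelium also makes, was 5.2-fold higher. The bradykinin receptors lay on opposite sides, Bdkrb1 4.87-fold higher and Bdkrb2 5.11-fold lower. Npr3, which clears natriuretic peptides, was 3.36-fold higher. Npy1r, a neuropeptide Y receptor, read 4074, 4253 and 3954 in bladder and 2047 and 1339 in lung. Calcrl, the receptor core for CGRP and adrenomedullin, was 2.93-fold lower.

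Receptors for lipid and amine mediators had 7 of 26 tested genes higher in lung and 8 lower (as against 9 and 6 once the scaling is undone). S1pr3, a sphingosine phosphate receptor that drives contraction, read 715, 683 and 659 in bladder and 4322 and 4034 in lung, and its relative S1pr2 was 2.23-fold lower. Tbxa2r, the thromboxane receptor, was 3.89-fold higher. The prostaglandin E receptors that raise cyclic AMP lay on opposite sides, Ptger2 at 126, 96 and 93 in bladder and 884 and 895 in lung and Ptger4 at 1706, 1732 and 1524 in bladder and 382 and 501 in lung. Ptgir and Ptgfr, receptors for prostacyclin and prostaglandin F, were 2.07-fold lower and 2.76-fold lower. Htr2a, a serotonin receptor of airway and vascular muscle, was 12.9-fold higher, and Lpar1, a lysophosphatidic acid receptor, 3.02-fold lower.

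Cyclic nucleotides relax smooth muscle. The list of their pathway also holds phosphodiesterases, which break them down, and Rgs genes, so its count gives no direction of relaxation. It had 24 of 38 tested genes higher in lung and 5 lower (median 0.84). Adcy5, an adenylyl cyclase, read 236, 198 and 259 in bladder and 4425 and 2652 in lung (3.89 ± 0.23, adjusted p = 1.36e-05), and Adcy3 and Adcy2 were 3.17-fold higher and 3.17-fold higher. Prkg1, the cyclic GMP kinase, read 146, 179 and 82 in bladder and 821 and 517 in lung, and its substrate at the calcium store, Irag1, a member of the calcium list, was 5.43-fold higher. Of the guanylyl cyclase subunits, Gucy1b1 was 2.1-fold higher and Gucy1a1 did not pass the test, at 4428, 4836 and 4127 in bladder and 4809 and 2631 in lung. The phosphodiesterases lay on both sides, Pde1b 1.65-fold higher, Pde3b 4.17-fold lower and Pde9a 2.36-fold lower. Rgs4 and Rgs7bp, which restrain G protein signals, were 5.31-fold higher and 6.76-fold higher. Akap12, an anchor for protein kinase A, read 7909, 7020 and 6664 in bladder and 2666 and 1959 in lung. Lung library 1 was above lung library 2 in 17 of the 24 higher members.

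Signalling between cells differed in several families. NOTCH genes had 11 of 22 tested genes higher in lung and 2 lower (7 higher without lung library 2) (median 0.81). Notch3, the receptor of mural cells (chromosome 17, 32339794 to 32385826, build mm39), read 273, 273 and 347 in bladder and 3707 and 3932 in lung (3.69 ± 0.14, adjusted p = 2.79e-06). Its ligand Jag1 was 2.82-fold higher, and among the target genes Hey2 was 9.14-fold higher, Heyl 1.94-fold higher and Hey1 2.71-fold higher. The target gene Hes1 was called lower in lung, at 1862, 2203 and 2090 in bladder and 1310 and 1571 in lung. Dlk1, a ligand of the other direction and an imprinted gene, read 734, 682 and 718 in bladder and 14 and 42 in lung, 25.4-fold lower in lung. Notch3 is counted in the vascular list too, which was higher in lung.

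Hedgehog genes were more often lower in lung, with 4 of 17 tested genes higher in lung and 10 lower (median -0.76). The target and factor gene Gli1 read 1064, 1032 and 1183 in bladder and 379 and 476 in lung, and Ptch1, the receptor and another target, read 1593, 1374 and 1505 in bladder and 755 and 644 in lung. Gli2 was 2.61-fold lower, and the coreceptors Gas1 and Boc were 2.44-fold lower and 1.97-fold lower. Scube1 was 6.34-fold lower, while its relative Scube3, of a family that helps release the ligand, was 7.29-fold higher. Ihh, Indian hedgehog, read 3, 9 and 1 in bladder and 232 and 122 in lung. Hhip, which binds the ligands, read 2991, 2654 and 3006 in bladder and 8879 and 6522 in lung. Ihh and Hhip thus lay on the opposite side from Gli1 and Ptch1.

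WNT genes had 11 of 46 tested genes higher in lung and 20 lower (as against 17 and 15 once the scaling is undone). Ligands lay on both sides. Wnt5a read 685, 658 and 604 in bladder and 2474 and 2520 in lung, and Wnt2, a ligand of lung fibroblasts, read 3058, 3019 and 2988 in bladder and 145 and 335 in lung. Wnt11 was 1.69-fold higher, and Wnt5b and Wnt4 were 7.96-fold lower and 8.06-fold lower. Secreted antagonists lay on both sides as well, with Wif1 23.6-fold higher beside Sost, and Frzb 13.7-fold lower, Dkk2 12.6-fold lower and Sfrp1 2.94-fold lower. Among receptors, Ror2 was 3.36-fold higher and Fzd4 3.83-fold lower.

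BMP and TGF-beta genes had 14 of 48 tested genes higher in lung and 17 lower (as against 17 and 14 with equal totals, 16 and 12 with quantile normalization and 27 and 9 once the scaling is undone). BMP ligands lay on both sides. Bmp3 was 2-fold higher, and Bmp5 did not pass the test, at 1271, 1193 and 1244 in bladder and 1376 and 979 in lung. Bmp6 read 4866, 5293 and 4826 in bladder and 422 and 478 in lung (-3.47 ± 0.10, adjusted p = 1.09e-06), Bmp4 was 3.03-fold lower and Bmp7 13.6-fold lower. Antagonists that bind them lay on both sides. Grem1, gremlin, read 1, 9 and 19 in bladder and 554 and 1056 in lung, and Nog, noggin, was 13-fold higher. Chrd, chordin, was 5.79-fold lower and Sostdc1 at least 86.9-fold lower. Inhba, the activin A chain, read 179, 180 and 206 in bladder and 1971 and 2641 in lung, and Fst, which binds activin, was 3.46-fold higher. Tgfb2 was 2.18-fold higher and the receptor Tgfbr2 2.12-fold lower. Id1, a target of BMP signals, did not pass the test, at 969, 1115 and 1224 in bladder and 1298 and 1415 in lung.

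Growth factor genes had 19 of 54 tested genes higher in lung and 17 lower (as against 29 and 12 once the scaling is undone). Fgf18 read 238, 222 and 246 in bladder and 1142 and 1424 in lung. Fgf9, a ligand of mesothelium and epithelium, was 9.99-fold lower, and its cell source was not tested. The receptors Fgfr2 and Fgfr1 were 4.1-fold higher and 2.1-fold lower. Angpt2, an angiopoietin, read 360, 161 and 191 in bladder and 2982 and 2084 in lung. Pdgfa and Pdgfb were 3.66-fold higher and 4.09-fold higher, and Pdgfd 2.43-fold lower. The neurotrophin genes Bdnf and Ntf3 were 8.82-fold higher and 3.61-fold higher. Retinoid genes had 2 of 19 tested genes higher in lung and 7 lower (as against 5 and 4 once the scaling is undone). That was 47.4% called, against 39.2% of all genes. The enzyme Aldh1a3, which makes retinoic acid, read 4442, 5126 and 4555 in bladder and 782 and 1392 in lung.

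**Figure D5:**
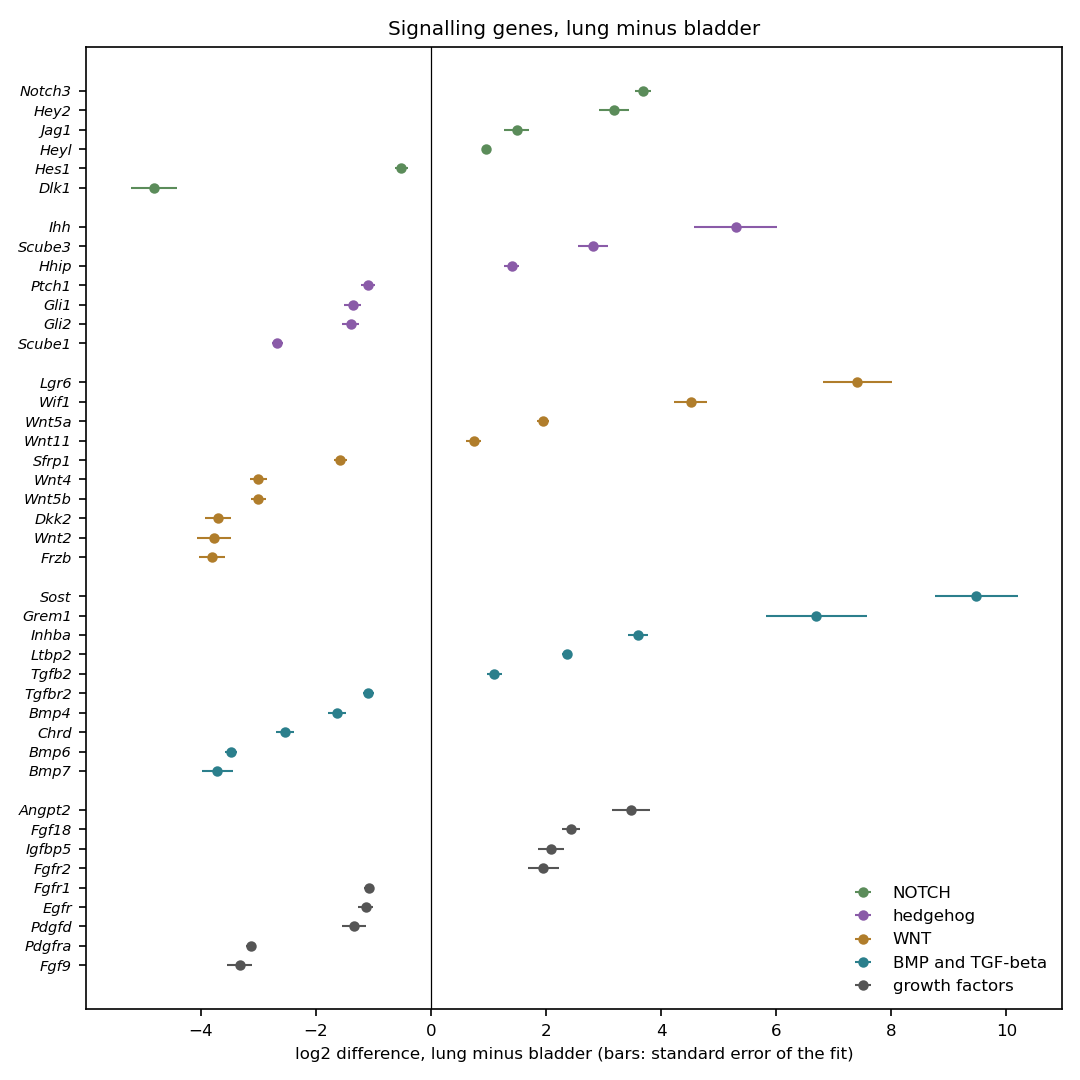
Lung minus bladder log2 difference with its standard error (horizontal axis) of named genes of 5 signalling families. Notch3, Lgr6, Sost, Grem1 and Angpt2 lie to the right of 0, and Dlk1, Scube1, Frzb, Wnt2, Bmp7 and Fgf9 lie to the left.

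Matrix genes were mostly lower in lung, and densely read genes shared a shift to lower values there. Several matrix genes, Col15a1 and Lum among them, are also counted in the general fibroblast list. The sums of that list are therefore not separate from them. Collagens and their crosslinking enzymes had 3 of 37 tested genes higher in lung and 26 lower (as against 5 and 22 with equal totals, 6 and 16 with quantile normalization and 9 and 13 once the scaling is undone, 6 higher without lung library 1) (median -0.63), and 10 members were read at 1 read per nt or more. Differences larger than that shift were seen in Col11a1, a chain of fine fibrils, at 811, 508 and 623 in bladder and 16 and 3 in lung, in Col8a2, 6.73-fold lower, and in Col15a1 of the basement membrane zone, 3.23-fold lower. Col7a1, which anchors epithelium, was 7.75-fold higher and Col13a1 4.41-fold higher. Elastic fibre genes had 1 of 15 tested genes higher in lung and 12 lower (as against 3 and 6 once the scaling is undone): the fibulin gene Efemp1 read 4554, 4421 and 3925 in bladder and 510 and 616 in lung and Emilin2 was 6.5-fold lower. Fbn1, fibrillin, was 2.28-fold lower.

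Basement membrane genes and integrin ligands had 11 of 34 tested genes higher in lung and 16 lower (as against 13 and 12 with quantile normalization and 14 and 12 once the scaling is undone). Laminin alpha chains lay on both sides: Lama5 read 190, 220 and 185 in bladder and 1269 and 1226 in lung, Lama2 read 4300, 4433 and 4196 in bladder and 1015 and 826 in lung, and Lama4 was 2.38-fold lower. The shared chains Lamb1 and Lamc1 were 4.71-fold lower and 3.21-fold lower. Npnt, nephronectin, a ligand of the integrin that Itga8 forms, read 251, 287 and 213 in bladder and 5548 and 4014 in lung (4.24 ± 0.18), so ligand and receptor were both higher in lung. Of matricellular genes Ccn4 was 3.79-fold higher, Ccn5 3.01-fold higher and Thbs2 4.2-fold lower. Fn1, fibronectin, did not pass the test, at 11165, 10785 and 10293 in bladder and 10993 and 11261 in lung.

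Proteoglycan genes had 6 of 25 tested genes higher in lung and 16 lower (as against 9 and 10 with quantile normalization and 10 and 10 once the scaling is undone). Vcan, versican, was 2.64-fold lower, and the hyaluronan synthases lay on opposite sides, Has1 5.12-fold lower and Has2 1.64-fold higher. Matrix proteases and their inhibitors had 10 of 38 tested genes higher in lung and 21 lower (as against 14 and 12 once the scaling is undone). Timp4, an inhibitor of metalloproteinases, read 48, 28 and 38 in bladder and 1973 and 1447 in lung (5.47 ± 0.29, adjusted p = 8.88e-06). Mmp3, stromelysin, read 434, 433 and 406 in bladder and 1838 and 2331 in lung, and Mmp10 was 37.9-fold higher. Adamts8 was 5.58-fold higher, Adamtsl3 11.7-fold lower and Mmp16 7.71-fold lower. Lung library 2 was above lung library 1 in 8 of the 10 higher members.

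Cadherins and adhesion genes best known from neurons had 12 of 36 tested genes higher in lung and 20 lower (median -1.70), while neuron markers summed to 92.2 to 107 ppm of all values in bladder and 98.4 and 169.8 ppm in lung. Cntn4, a contactin, read 2958, 3270 and 2655 in bladder and 73 and 55 in lung, and its relative Cntn6 read 874, 778 and 875 in bladder and 12 and 2 in lung. Flrt3, a guidance and adhesion protein, was 57-fold lower. The protocadherins Pcdh18 and Pcdh19 were 7.14-fold lower and 6.71-fold lower. Higher in lung were Cdh6, at 55, 33 and 49 in bladder and 1278 and 821 in lung, Cdh3, 7.84-fold higher, and Ncam1, 6.08-fold higher.

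Axon guidance genes had 11 of 42 tested genes higher in lung and 15 lower (as against 16 and 8 once the scaling is undone). Plxnd1, a semaphorin receptor of endothelium, read 259, 171 and 135 in bladder and 1349 and 1566 in lung. Plxnc1 was 6.25-fold higher. Sema3c and Sema3d were 2.84-fold lower and 2.57-fold lower, and Slit3, a ligand of ROBO receptors, 2.36-fold lower. Ephrins lay on both sides, with Efnb2, which marks arteries, at 345, 347 and 438 in bladder and 2106 and 1376 in lung and Efna5 3.96-fold lower.

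Proliferation genes were higher in lung in nearly the whole list, 30 of 33 with 0 lower (median 1.97), and their sums were 590.4 to 652 ppm of all values in bladder and 1596 and 2512 ppm in lung. Mki67, present in cycling cells, read 120, 66 and 68 in bladder and 382 and 503 in lung, and the mitotic kinase gene Plk1 read 48, 66 and 98 in bladder and 505 and 936 in lung. Cdk1, which drives entry into mitosis, was 7.16-fold higher, and Mcm2, of the replication helicase, 2.75-fold higher. All lung values of these 4 genes were above all bladder values (over all tested genes, values did not overlap in 61.8%). Lung library 2 was above lung library 1 in 29 of the 30 higher members. Pcna, the replication clamp, did not pass the test, at 449, 474 and 463 in bladder and 407 and 534 in lung. Which cells held this RNA was not tested.

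Immediate early genes, which respond to stress and to cell isolation, were lower in lung: of 32 tested, 0 were higher and 24 lower, or 3 and 10 once the scaling is undone (median -0.60), and 15 were read at 1 read per nt or more. Larger differences were seen in Nr4a2, an orphan nuclear receptor, at 3715, 5373 and 4482 in bladder and 374 and 353 in lung, and Fosb, a partner of JUN, at 6903, 8128 and 7221 in bladder and 692 and 1047 in lung (-3.12 ± 0.16, adjusted p = 8.88e-06). Atf3 and Egr2 were 4.98-fold lower and 3.47-fold lower. Heat shock genes had 5 of 19 tested genes higher in lung and 9 lower (as against 5 and 5 with quantile normalization and 11 and 1 once the scaling is undone). The small heat shock proteins of muscle Hspb7, Hspb2 and Hspb6 were 7.94-fold higher, 8.97-fold higher and 4.06-fold higher. Hspb2 overlaps Cryab, also called higher in lung, in these coordinates, and the split of reads between them is uncertain. The cochaperone Dnajb1 was 2.24-fold lower.

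Chemokine, cytokine and complement genes had 7 of 45 tested genes higher in lung and 24 lower (as against 13 and 21 once the scaling is undone, 4 higher without bladder library 3 or lung library 2) (median -0.69). Cd55, which protects cells from complement, read 8215, 8386 and 7232 in bladder and 346 and 423 in lung (-4.37 ± 0.11, adjusted p = 1.09e-06), and the complement genes C7 and C3 were 5.38-fold lower and 2.61-fold lower. Il33, an alarmin of stromal and epithelial cells, was 2.99-fold lower, and Il6 3.83-fold lower. Cx3cl1, fractalkine, was 2.27-fold higher. Interferon-induced genes had 4 of 39 tested genes higher in lung and 15 lower (as against 8 and 4 once the scaling is undone, 2 higher without lung library 2, 8 lower without bladder library 1, 9 lower without bladder library 2 or lung library 2). Of the tested interferon-induced genes 48.7% were called, against 39.2% of all tested genes. Irf8, best known from myeloid cells, read 2622, 2709 and 2625 in bladder and 567 and 654 in lung. Its cell source was not tested.

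Energy genes differed by pathway. Oxidative phosphorylation genes had 2 of 51 tested genes higher in lung and 5 lower (as against 7 and 1 with equal totals, 2 and 2 with quantile normalization and 34 and 0 once the scaling is undone, 1 lower without bladder library 1 or bladder library 2, 3 lower without bladder library 3 or lung library 1), or 13.7% called against 39.2% of all genes, and 0 of them differed by a log2 difference of 1 or more. Glycolysis and creatine genes had 13 of 36 tested genes higher in lung and 9 lower (as against 20 and 3 once the scaling is undone), or 61.1% called. Slc2a4, the insulin-regulated glucose transporter, read 365, 317 and 356 in bladder and 1663 and 870 in lung, and Pygm, muscle glycogen phosphorylase, was 2.79-fold higher. Gatm, which makes the precursor of creatine, was 6.01-fold lower, while Gamt, the next enzyme, was 2.45-fold higher. Lipid genes had 6 of 28 tested genes higher in lung and 8 lower (as against 8 and 7 with quantile normalization and 12 and 4 once the scaling is undone). That was 50% called, against 39.2% of all genes. The desaturase gene Scd1 read 4514, 4141 and 3748 in bladder and 785 and 494 in lung. The cholesterol exporter Abca1 was 7.01-fold lower and the lipid droplet gene Plin4 10.9-fold higher.

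Imprinted genes, read from 1 parental copy, had 3 of 22 tested genes higher in lung and 14 lower (as against 4 and 5 once the scaling is undone) (median -0.67). Nnat, neuronatin, read 36, 33 and 60 in bladder and 662 and 1076 in lung. Igf2, the growth factor, was 6.3-fold higher, while Meg3 and Rian, noncoding RNAs of the Dlk1 locus, were 2.46-fold lower and 3.35-fold lower. Nuclear receptors had 7 of 25 tested genes higher in lung and 8 lower (as against 7 and 6 with quantile normalization and 9 and 6 once the scaling is undone), and Pparg, a regulator of fat and urothelial cells, read 1197, 1444 and 1341 in bladder and 141 and 68 in lung. Circadian clock genes had 1 of 17 tested genes higher in lung and 4 lower (as against 6 and 1 once the scaling is undone, 2 lower without bladder library 2 or bladder library 3, 8 lower without lung library 1). Of the tested clock genes 29.4% were called, against 39.2% of all tested genes. Hlf, an output factor of the clock, was 3.17-fold higher.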

How the data were processed

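RNA of sorted cells was amplified from at most 10 ng of input into full-length cDNA libraries with SMART-Seq v4, per the labels' protocols, and such libraries do not mark strand. Per the submitters' processing notes the genome build was mm39 and the tools were, in no given order or role, DESeq2 1.36.0, featureCounts 2.0.4, STAR 2.7.10a, Trimmomatic 0.39 and Picard 3.0.0. If Picard removed duplicate reads, the values of the most densely read genes would be capped; its part was not tested. The deposited values are treated as a score: per-gene read counts that the authors scaled by 1 constant per library and rounded to whole numbers, as the spacing of the values shows. That spacing gave the value of 1 read (1.10 to 1.27 in bladder, 0.822 and 0.866 in lung) and so the depth. The test was planned for normalized values, so no count model was fitted.

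The log2(value + 1) of the 5 libraries was fitted with limma 3.58.1 (R 4.3.3) with an intensity trend and no covariate, on the 16408 genes that reached 10 in 2 or more libraries, with Benjamini-Hochberg adjusted, two-sided p under 0.05 as the call. In simulated data of the same design 14 of 50 genes changed 1.5-fold, 49 of 50 changed 2-fold and 50 of 50 changed 4-fold upward were recovered over 16187 genes, as were 44 of 50 changed 0.5-fold. Folds are ratios of mean values. Where every library of a group was at 0, the fold was taken against a floor of 3 reads per library and written as "at least". Where a group was near 0 but not all at 0, the values are mostly given and no fold. Folds such as those of Hand2, Mmp10 and Tbx20 rest on few reads in the lower organ. The floor covers counting error only. Levels per kb use exon lengths of GENCODE M21 (GRCm38), matched by gene ID for 96.8% of genes. Coordinates are those of the deposited table.

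Members and lists (43 gene lists and 20 marker lists) were chosen with earlier results of these data known. Named genes were taken by rule: the 15 of largest difference per direction with a mean of at least 200 in the higher organ, in each list up to 6 called members per direction with a mean of at least 30 and up to 4 by level, defining markers, and paralogues of a named gene. Of 312 genes named and checked against the rule, 62 lie outside it as coded. These were chosen after their values were seen, as relatives or partners of named genes. Results for a few genes are not reported here. Alternatives were another pseudocount, filter, scaling, variance model, a replicate block, all 8 libraries and leaving out each library. Same-numbered bladder and lung libraries did not deviate together (r = 0.012 across genes), so the numbers were not taken as pairs.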

Additional observations from a re-analysis of the deposited data

How the results depend on the processing

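The call counts of 2861 genes higher and 3577 lower in lung stayed within 1.5 times under 13 of the 14 alternatives. The exception was the deposited scaling undone, which gave 7103 higher and 1771 lower; it removes the correction for depth by construction. With the replicate block 2324 genes were higher and 3158 lower; the lung libraries and bladder libraries of the same number share only a number. Leaving out 1 library gave 1949 to 2753 genes higher and 2556 to 3790 lower. Without a lung library the remaining one is assumed to vary like bladder. Calls that turned direction numbered 33 of all tested genes with the scaling undone, 6 with quantile normalization and 0 under each other alternative.

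Of 291 called genes named in the text and followed under the alternatives, 0 reversed. The calls lost were Agtr1a, Ryr2, Srf, Pecam1, Epcam and Pcsk7 (0.54 on the log2 scale), the last under 7 alternatives, and each is lost when some library is left out. Of 126 counts of list members, 31 moved by more than 1.5 times when some library was left out and 49 with the scaling undone. Depth limits genes near the floor of 3 reads, and 2 lung libraries limit every statement on lung.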
